A study of Mus musculus with 6 samples.

Results

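The nuclear genes for respiratory complexes III and IV and for complex V, the ATP synthase, were described in the optic nerve of mice. They were chosen by name, as protein-coding genes of the deposited gene table whose symbol starts with Uqcr, Cox4i, Cox5, Cox6, Cox7, Cox8 or Atp5, plus Cyc1. The rule took 44 of 52636 genes, of which 9 fall to complex III, 18 to complex IV and 17 to complex V. It also took 3 genes that are no structural subunits. Atp5s and Atp5sl carry the names of distal membrane arm assembly proteins of complex I in the table, and Cox7a2l helps to join complexes III and IV into supercomplexes. No measured value entered the rule.

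Total RNA was sequenced in 3 libraries labelled mCherry, after a red fluorescent protein, and 3 labelled hND6, after a mutant human ND6 gene. ND6 is a complex I subunit whose own gene lies on the mitochondrial genome. The labels speak of lentivirus with the mutant gene injected into the eyes and give this text for both groups, so that only the treatment label tells what the mCherry mice received. Strain, age, time after injection, the promoter of the vector and whether a library is 1 animal are not given in the sources used here. The p-values therefore rest on library-to-library spread, part of which may be technical. The human transgene was not analysed here.

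Complex III passes electrons from ubiquinol to cytochrome c, complex IV passes them on to oxygen, and both move protons across the inner mitochondrial membrane. Complex V lets the protons flow back and makes ATP. Several subunits of complex IV and the ring subunit c of complex V come in isoforms, some of them typical of muscle, lung or testis. The optic nerve holds the axons of retinal ganglion cells, which use much ATP, while most of its cell bodies are glia.

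Reads assigned to genes ran from 20253637 to 34758873 per library. The 7 oligodendrocyte markers summed to 6091, 6859 and 4571 FPKM (fragments scaled by exon length and library size) in mCherry and to 6553, 7598 and 7566 in hND6. Of these 6 of 7 lay higher in hND6 (median 0.33 on the log2 scale), beside 48.6% of all tested genes. Under quantile normalisation, which gives all libraries 1 distribution, 3 of 7 lay higher (median -0.008). Of microglia markers 6 of 6 lay higher (median 0.48, sums of 261 to 468 FPKM in mCherry and 388 to 495 in hND6). For 3 of them the groups did not overlap, where 12.6% of all tested genes lay higher without overlap. Of astrocyte markers 5 of 6 lay higher (0.18, sums of 1399 to 1854 and 1970.0 to 2352 FPKM), and of fibroblast markers 4 of 4 (0.36, sums of 121 to 197 and 186 to 206.5 FPKM). Under quantile normalisation the medians were 0.39 for microglia, 0.03 for astrocyte and 0.30 for fibroblast markers. With libraries scaled to 1 sum of FPKM they were 0.33, 0.03 and 0.22, and 0.18 for oligodendrocyte markers. The 8 neuron markers summed to 635 FPKM in mCherry 3, to 203 in hND6 1 and to between 28.3 and 61.6 in the other 4 libraries. The 6 photoreceptor markers summed to 192 FPKM in hND6 2 and to at most 6.13 elsewhere. The 6 erythroid markers summed to 467.5, 180 and 366 FPKM in mCherry and to 1365, 2603 and 1791 in hND6. Each of the 6 lay higher without overlap between the groups, beside 12.6% of all tested genes. The part of these cells in the results below was not tested.

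The summed transcripts of each complex stood at nearly 1 level in the 3 hND6 libraries and in mCherry 3, and lower in mCherry 1 and mCherry 2. For complex III mCherry 1, 2 and 3 held 290, 296 and 433 FPKM, and hND6 1, 2 and 3 held 449, 429 and 443. Complex IV summed to 509.9, 509 and 799 FPKM in mCherry and to 801, 797 and 794 in hND6. Complex V summed to 714, 717 and 984 FPKM in mCherry and to 975, 984 and 1008 in hND6. In all 3 sums mCherry 3 lay within the hND6 range, so the groups overlapped. Summed over all genes, the FPKM were unequal too, at 365375, 407436 and 411248 in mCherry and 417385, 440918 and 450685 in hND6. The sums per complex, their common level and the ratios below were not scaled to these totals and depend on that choice.

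The mean sum was 339.5 ± 80.8 FPKM in mCherry and 441 ± 10.5 in hND6 for complex III (SD, n = 3 each), a ratio of 1.30. For complex IV it was 606 ± 167 and 797 ± 3.90, a ratio of 1.32, and for complex V 805 ± 155 and 989 ± 16.9, a ratio of 1.23. The SD was larger in mCherry than in hND6 for 35 of the 40 genes that were tested. The share over all tested genes was not taken, so this count is not read as particular to these genes. In bulk RNA, fewer cells of a type and less RNA per cell cannot be told apart.

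**Figure D1:**
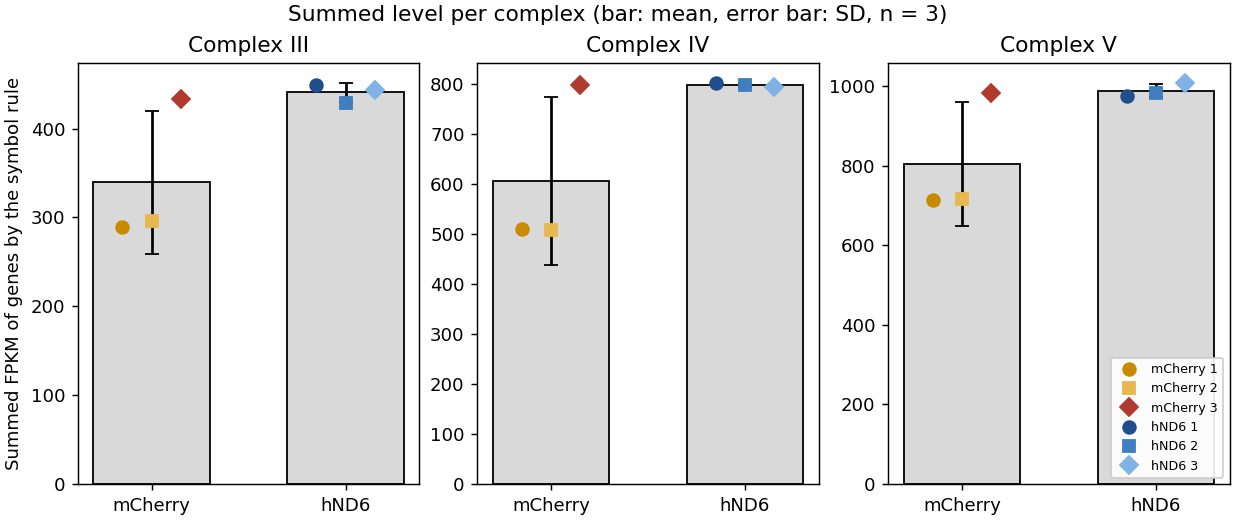
Summed FPKM of the genes of each complex (y axis, from 0) in the mCherry and hND6 groups, with bars for the mean of 3 libraries, error bars for the SD and a point for each library. In complex IV mCherry 1 and mCherry 2 lie at 509.9 and 509 FPKM and the other 4 libraries between 794 and 801. The sums take every gene of the symbol rule, with Cox4i1 at a listed 0 that is not read as absence.

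Of the 44 genes 40 averaged at least 0.5 FPKM over the 6 libraries and were tested with limma on log2(FPKM + 0.5) among 16157 genes. None of the 40 passed the adjusted p threshold of 0.05 (limma adjusted p from 0.22 to 0.86), where 7 genes, 0.0433%, passed in the whole table, all higher in hND6. At an unadjusted p under 0.05 lay 10 of the 40, all higher in hND6, or 25% beside 9.11% of all tested genes. Limma's voom on the recovered reads called 0 of them as well, with 10 at an unadjusted p under 0.05. The share at an unadjusted p under 0.05 and higher fell to 1 of 40 (2.5%, beside 3.37% of all tested genes) with libraries scaled to 1 sum of FPKM. It fell to 2 of 40 (5%, beside 5.56%) with the trend with gene span removed and to 4 of 40 (10%, beside 8.21%) with quantile normalisation. Leaving out 1 library gave 1 to 33 of 40, the highest without mCherry 3 and the lowest without mCherry 1, and library weights gave 32. The fitted log2 fold change was above 0 for 37 of 40 genes, beside 48.6% of all tested genes, with a median of 0.33 beside -0.01.

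The groups did not overlap for 9 of the 40 genes, each higher in hND6, or 22.5% beside 12.6% of all tested genes. This share was not above that of all genes under the scaling to 1 sum or with the span trend removed, as given with gene span. With quantile normalisation it was 15% beside 12.2%. The 9 genes were Uqcrc2 and Uqcrb of complex III, Cox6a1, Cox7c and Cox6b2 of complex IV, and Atp5e, Atp5j, Atp5h and Atp5g2 of complex V. None lay lower without overlap, beside 10.2% of all tested genes. For 35 of the 40 genes both mCherry 1 and mCherry 2 lay below every hND6 library, beside 19.9% of all tested genes. Library mCherry 3 was the highest mCherry library for 38 of 40, beside 34.4%, and lay above all hND6 libraries for 13 (share over all genes not taken). It lay within the hND6 range, with mCherry 1 and 2 below it, for 16 of 40 genes, beside 3.95% of all tested genes. This order of the libraries was noticed after the values were seen.

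**Figure D2:**
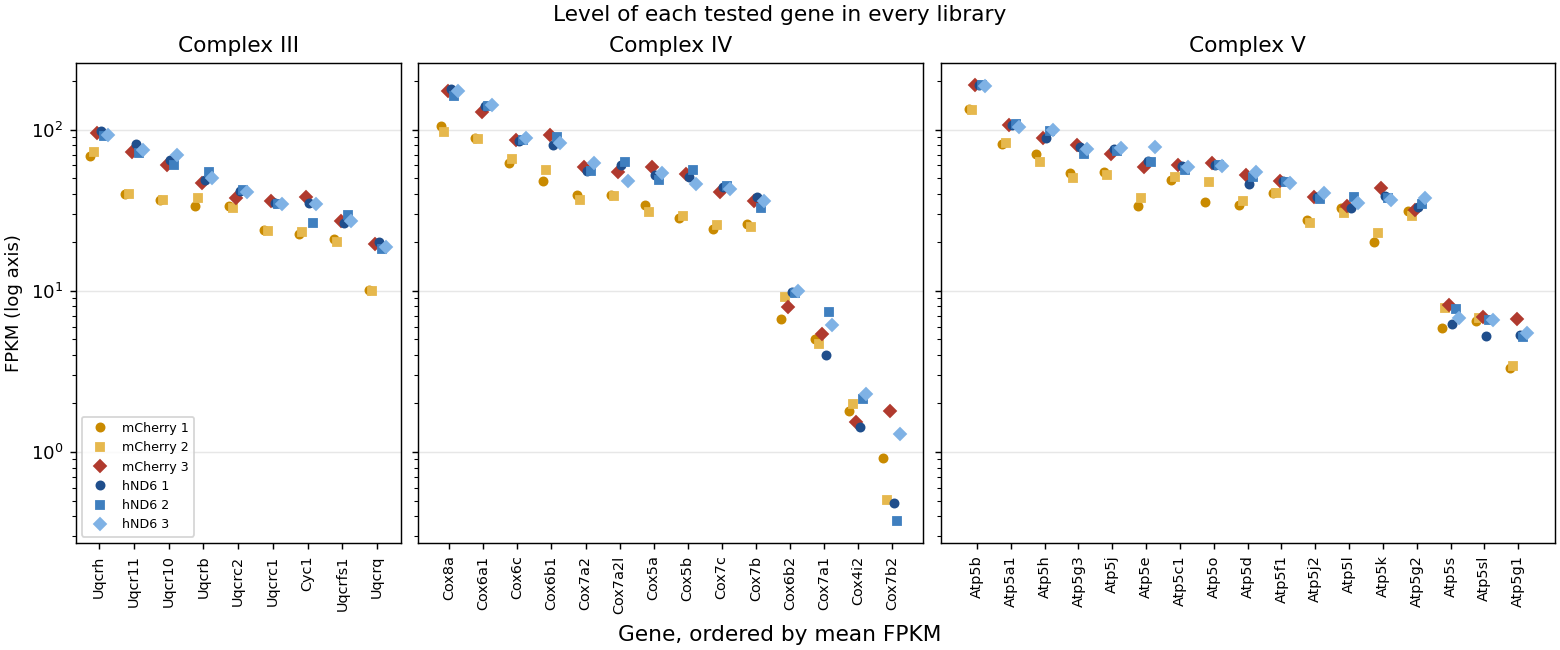
FPKM (y axis, log scale) of each of the 40 tested genes in the 6 libraries, by complex and ordered by mean level on the x axis. For 35 genes both mCherry 1 and mCherry 2 lie below every hND6 library, beside 19.9% of all tested genes. Library mCherry 3 lies within the hND6 range for 18 genes, beside 30% of all tested genes. It lies above that range for 13, where the share over all genes was not taken.

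The 3 complexes gave similar values. In complex III 9 of 9 genes lay higher in hND6, with a median log2 fold change of 0.34, in complex IV 13 of 14 with 0.37, and in complex V 15 of 17 with 0.31. The exceptions in complex V were Atp5s and Atp5sl, without which 15 of 15 lay higher with a median of 0.32. As median log2 deviation from each gene's mean over all libraries, complex III stood at -0.37, -0.33 and 0.19 in mCherry 1, 2 and 3 and at 0.19, 0.19 and 0.17 in hND6. Complex V spread less, from -0.31 in mCherry 2 to 0.18 in hND6 3. The difference between the complexes was not tested.

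Without mCherry 3 some genes were called. Then 11 of the 40 passed, all higher in hND6, or 27.5% beside 0.811% of all tested genes (0.718% higher in hND6), each close under the threshold (limma adjusted p from 0.0448 to 0.0455). They were Uqcr10, Uqcr11, Uqcrc1 and Uqcrq of complex III, Cox5a, Cox5b, Cox6a1, Cox7c and Cox8a of complex IV, and Atp5e and Atp5k of complex V. The medians were then 0.51, 0.56 and 0.51 for complexes III, IV and V. With hND6 1, the library of the next highest neuron marker sum, left out as well, none passed (smallest limma adjusted p = 0.0987), and the median over the 40 genes was 0.50. With hND6 2 left out beside mCherry 3, none passed either (smallest adjusted p = 0.23).

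**Figure D3:**
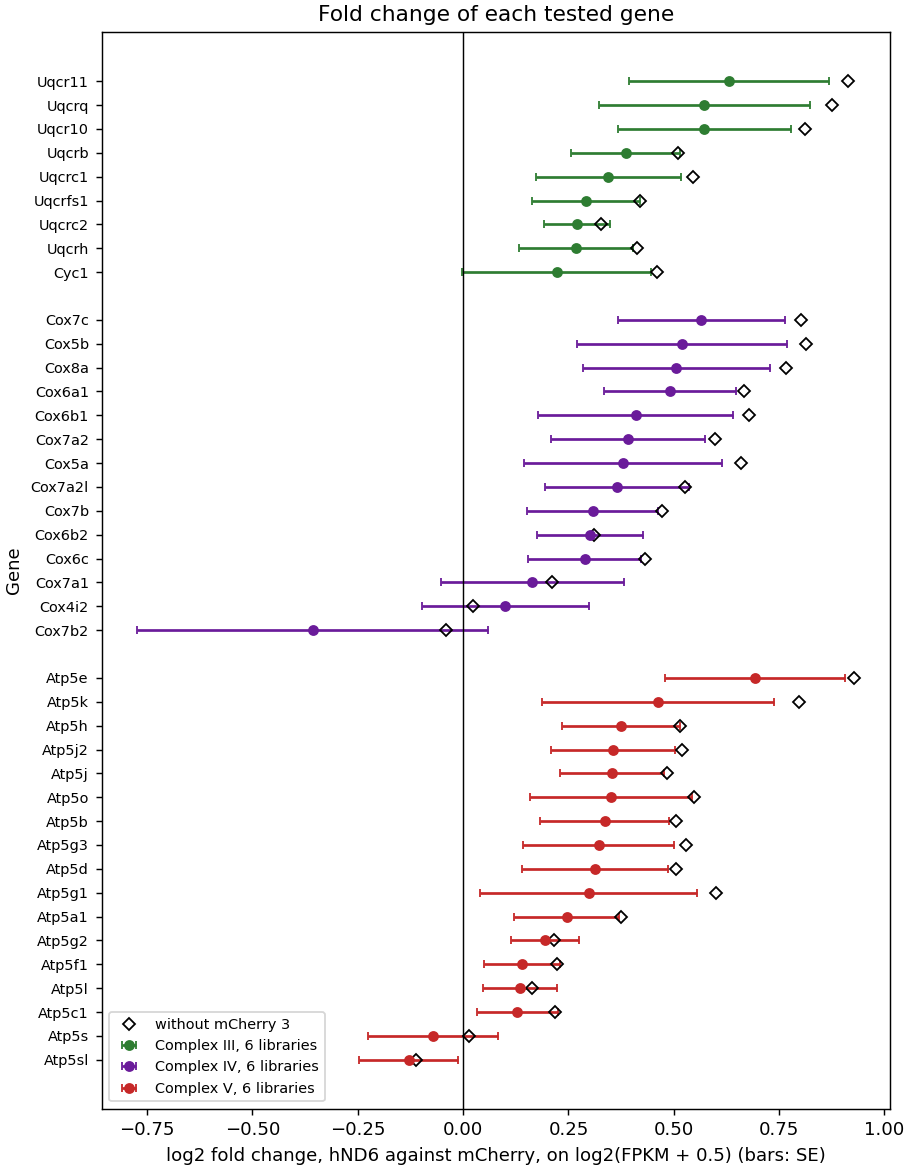
Log2 fold change, hND6 against mCherry, of each tested gene (x axis, on the log2(FPKM + 0.5) scale, bars are SE), with genes on the y axis ordered by value within each complex and open symbols for the fit without mCherry 3. In the fit of all 6 libraries 37 of 40 genes lie above 0, and Cox7b2, Atp5sl and Atp5s lie below.

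Complex III is built on a pair of large core proteins on its matrix side, Uqcrc1 and Uqcrc2. Uqcrc2 (ENSMUSG00000030884, chromosome 7, 120635176 to 120659524, plus strand, mm10) stood at 33.5, 32.8 and 37.4 FPKM in mCherry and 41.8, 42.2 and 41.1 in hND6. All hND6 libraries were above all mCherry libraries, with mCherry 3 nearest to them. Its log2 fold change was 0.27 ± 0.08 (SE), with the smallest p of the complex (limma adjusted p = 0.22). Uqcrc1 stood at 23.7, 23.6 and 36.3 FPKM against 35.0, 34.6 and 34.7, and here mCherry 3 exceeded every hND6 library.

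Uqcrb, which lies near the ubiquinone site, stood at 33.8, 37.8 and 46.5 FPKM in mCherry and 48.6, 54.7 and 50.3 in hND6. Its groups did not overlap (log2 fold change 0.39 ± 0.13, limma adjusted p = 0.26). Uqcr10, a small membrane subunit, stood at 36.7, 36.5 and 60.6 FPKM against 64.4, 60.6 and 69.3, with mCherry 3 and hND6 2 level (0.57 ± 0.20, adjusted p = 0.28). Uqcr11 had the largest log2 fold change of complex III, at 39.7, 40.1 and 72.3 FPKM against 80.9, 71.2 and 75.1 (0.63 ± 0.24, adjusted p = 0.30). In both genes mCherry 1 and 2 stood apart below the other 4 libraries.

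Uqcrh, the hinge protein that helps cytochrome c to dock, was the most abundant complex III transcript at 78.7 ± 14.5 FPKM in mCherry and 93.9 ± 3.30 in hND6. Uqcrfs1, the Rieske iron-sulfur protein that takes an electron from ubiquinol, stood at 22.6 ± 3.75 FPKM in mCherry and 27.6 ± 1.75 in hND6. Cyc1, cytochrome c1, which hands the electron on, had the lowest log2 fold change of complex III at 0.22 ± 0.22 (limma adjusted p = 0.68), and -0.03 with the trend with gene span removed. It stood at 22.5, 23.2 and 37.9 FPKM against 35.0, 26.4 and 34.4, so that mCherry 3 was the highest of the 6 libraries and hND6 2 close to mCherry 1 and 2. Uqcrq was lowest in level at 13.2 ± 5.36 FPKM in mCherry and 19.0 ± 0.940 in hND6, on an exon length of 1521 bases in the table, where Uqcr10, Uqcr11, Uqcrb and Uqcrh have 434 to 547.

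Complex IV is assembled around 3 subunits encoded in mitochondrial DNA, and its nuclear subunits stabilise and regulate that core. Cox8a, a small membrane subunit, had the highest listed level of complex IV. Cox4i1 is left aside here, since its listed 0 is not read as absence. Cox8a stood at 105, 96.6 and 173 FPKM in mCherry and 179.5, 163 and 173 in hND6. Its mCherry 3 value lay within the hND6 range (log2 fold change 0.51 ± 0.22, limma adjusted p = 0.35). Cox6a1 (ENSMUSG00000041697, chromosome 5, 115345642 to 115348981, minus strand) stood at 88.9, 87.6 and 128 FPKM against 140.0, 139.5 and 142. The hND6 libraries lay close together above all mCherry libraries, and Cox6a1 had the smallest p of the complex (0.49 ± 0.16, adjusted p = 0.25).

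Cox7c stood at 24.3, 25.5 and 41.0 FPKM in mCherry and 43.8, 44.5 and 42.9 in hND6. Its groups did not overlap, though mCherry 3 was nearer to hND6 than to the other mCherry libraries (log2 fold change 0.57 ± 0.20, limma adjusted p = 0.28). Cox5a and Cox5b, subunits of the matrix side, stood at 41.1 ± 15.1 FPKM in mCherry and 51.5 ± 2.63 in hND6 and at 36.9 ± 14.2 FPKM in mCherry and 50.9 ± 5.05 in hND6. Cox6c stood at 71.3 ± 13.1 FPKM in mCherry and 86.2 ± 1.73 in hND6, and Cox7b, encoded on the X chromosome, at 28.9 ± 6.15 FPKM in mCherry and 35.5 ± 2.92 in hND6.

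In complex V the catalytic head is a ring of alpha and beta subunits around a central stalk. Atp5b, the beta subunit with the catalytic sites, had the highest listed level of the 44 genes, Cox4i1 left aside. It stood at 133, 132 and 189 FPKM in mCherry and 189, 189 and 187 in hND6. The mCherry 3 value of Atp5b lay within the hND6 range (log2 fold change 0.34 ± 0.15, limma adjusted p = 0.36). Atp5a1, the alpha subunit, stood at 90.1 ± 14.7 FPKM in mCherry and 106 ± 2.92 in hND6. Among the stalk subunits the log2 fold change was 0.13 ± 0.10 for Atp5c1 (gamma; -0.02 with libraries scaled to 1 sum), 0.31 ± 0.17 for Atp5d (delta) and 0.69 ± 0.21 for Atp5e (epsilon), the last being the largest of the 40 genes.

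Atp5e (ENSMUSG00000016252, chromosome 2, 174461072 to 174464105, minus strand) stood at 33.7, 37.4 and 58.3 FPKM in mCherry and 64.1, 63.0 and 77.9 in hND6. Its groups did not overlap and hND6 3 was the highest library (limma adjusted p = 0.25). Atp5j, coupling factor F6 of the outer stalk, stood at 54.7, 52.6 and 70.7 FPKM against 75.5, 73.3 and 77.1 (log2 fold change 0.35 ± 0.12, adjusted p = 0.28). Atp5h, subunit d of that stalk, stood at 70.6, 62.5 and 89.0 FPKM against 89.1, 97.3 and 99.2, with hND6 1 only just above mCherry 3 (0.38 ± 0.14, adjusted p = 0.29).

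The other parts of the outer stalk and the membrane sector differed in how far mCherry 3 reached. Atp5o, which ties the outer stalk to the head, stood at 48.1 ± 13.2 FPKM in mCherry and 60.0 ± 0.568 in hND6, and Atp5f1, subunit b, at 43.1 ± 4.45 FPKM in mCherry and 47.3 ± 0.739 in hND6. The log2 fold change of Atp5f1 was 0.14 ± 0.09, and -0.0044 with libraries scaled to 1 sum. Atp5k, subunit e, which takes part in ATP synthase dimers, stood at 20.1, 22.8 and 43.4 FPKM against 38.5, 37.6 and 36.5, with mCherry 3 above all hND6 libraries. The log2 fold change was 0.36 ± 0.15 for Atp5j2 (subunit f) and 0.13 ± 0.09 for Atp5l (subunit g), the latter -0.0091 with libraries scaled to 1 sum. Atp5s stood at 7.32 ± 1.27 FPKM in mCherry and 6.90 ± 0.767 in hND6 and Atp5sl at 6.71 ± 0.205 FPKM in mCherry and 6.12 ± 0.768 in hND6, with log2 fold changes of -0.07 ± 0.15 and -0.13 ± 0.12 (limma adjusted p = 0.86 and 0.65). The sign for Atp5s turned to 0.01 without mCherry 3.

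The upstream sequences of Cox6a1 and Atp5e are printed because these genes have the smallest p in complexes IV and V. They are the 250 bases before the start site in RefSeq (GRCm38.p6), whose table matched 34 of the 44 genes. Capitals mark matches on either strand to the core of the NRF1 site, CCGGAAG (ETS factors such as GABPA), AAGATGGCG (YY1) and GGGCGG (SP1), and no matches of different motifs overlap in the printed windows. NRF1 and GABPA are known regulators of nuclear respiratory genes. Cox6a1 lies at chr5:115348959-115349208 and Atp5e at chr2:174464102-174464351, both on the minus strand.
Cox6a1: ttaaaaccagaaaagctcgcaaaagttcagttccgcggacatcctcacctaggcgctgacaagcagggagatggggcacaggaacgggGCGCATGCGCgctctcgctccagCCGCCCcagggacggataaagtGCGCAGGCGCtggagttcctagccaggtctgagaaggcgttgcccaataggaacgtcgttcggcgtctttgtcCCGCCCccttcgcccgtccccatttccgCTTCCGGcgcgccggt
Atp5e: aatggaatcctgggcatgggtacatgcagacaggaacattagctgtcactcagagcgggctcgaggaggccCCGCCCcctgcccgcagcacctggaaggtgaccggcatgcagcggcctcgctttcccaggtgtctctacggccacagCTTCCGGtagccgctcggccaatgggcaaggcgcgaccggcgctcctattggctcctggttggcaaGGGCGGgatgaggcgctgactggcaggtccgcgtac

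Cox6a1 held 2 matches to the NRF1 core, 1 to the ETS letters and 2 to the SP1 letters, and Atp5e held 0, 1 and 2. Over the 38 windows of the 34 genes the NRF1 core was found in 5 (13.2%), beside 3.7% of all 32851 windows of this length. The ETS letters were found in 8 (21.1%) beside 6.9%, the YY1 letters in 2 (5.3%) beside 0.6%, and the SP1 letters in 11 (28.9%) beside 32.7%. CCAAT on either strand was found in 20 windows (52.6%) beside 33.8%, and TATAAA in 2 (5.3%) beside 12.4%. These are matches of letters, not measured binding.

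Among isoforms of 1 complex IV subunit, Cox7a2l left aside, the widely expressed form was the more abundant in every library wherever it could be measured. Cox7a2 stood at 39.2, 36.4 and 58.4 FPKM in mCherry and 55.1, 55.5 and 62.0 in hND6. Cox7a1, the form of heart and skeletal muscle, stood at 5.03, 4.67 and 5.37 FPKM against 3.97, 7.40 and 6.18, with overlapping groups (log2 fold change 0.16 ± 0.22, limma adjusted p = 0.75, and -0.11 with the span trend removed). Cox7a1 was thus between 7.21% and 13.3% of Cox7a2. Cox7a2l, the supercomplex factor of this family, stood at 44.4 ± 9.08 FPKM in mCherry and 57.0 ± 7.98 in hND6. It was between 77.1% and 113% of Cox7a2, above it in some libraries and below it in others.

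The upstream windows of this pair are printed to set a widely expressed form beside a muscle form, with capitals for the same 4 motifs. Cox7a2 lies at chr9:79759854-79760103 on the minus strand and Cox7a1 at chr7:30183921-30184170 on the plus strand. Cox7a2 held 1 match to the SP1 letters, and Cox7a1 held none of the 4 and 2 matches to CCAAT.
Cox7a2: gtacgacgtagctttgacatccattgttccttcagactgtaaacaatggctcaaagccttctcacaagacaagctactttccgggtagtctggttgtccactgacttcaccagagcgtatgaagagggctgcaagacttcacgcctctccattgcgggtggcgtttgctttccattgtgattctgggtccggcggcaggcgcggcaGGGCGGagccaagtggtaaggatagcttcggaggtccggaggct
Cox7a1: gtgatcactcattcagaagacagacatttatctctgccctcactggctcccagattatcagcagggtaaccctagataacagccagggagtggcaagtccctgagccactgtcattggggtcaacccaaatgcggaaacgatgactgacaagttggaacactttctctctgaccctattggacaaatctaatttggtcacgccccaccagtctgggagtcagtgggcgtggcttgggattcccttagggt

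Further muscle forms were near the limit of detection. Cox6a2, the heart and muscle partner of Cox6a1, had 28 reads over all 6 libraries, with 0 in mCherry 2 and hND6 1 and at most 0.74 FPKM. Cox8b, the muscle and brown fat partner of Cox8a, had 14 reads, with 0 in mCherry 3 and at most 0.73 FPKM. Neither was tested. The 10 skeletal muscle markers summed to between 3.48 and 6.62 FPKM per library, and Ckm, muscle creatine kinase, stood at most at 0.06 FPKM. The 5 fat markers summed to between 2.58 and 6.66 FPKM. Nearly all of this was Cidea, at 2.44 to 6.60 FPKM, while Ucp1, Adipoq, Plin1 and Cfd stood at most at 0.095 FPKM.

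The forms known from testis differed from each other. Cox6b2 stood at 6.64, 9.18 and 7.98 FPKM in mCherry and 9.84, 9.68 and 9.92 in hND6, without overlap (log2 fold change 0.30 ± 0.13, limma adjusted p = 0.33, and -0.01 with the span trend removed). It was 8.67% to 16.2% of Cox6b1, which stood at 65.6 ± 23.3 FPKM in mCherry and 84.1 ± 4.69 in hND6. Cox7b2, with 77 reads in all, stood at 0.912, 0.501 and 1.79 FPKM against 0.485, 0.373 and 1.30 and had the lowest log2 fold change of complex IV (-0.36 ± 0.42, adjusted p = 0.72). Cox8c had 0 reads, where 3 reads over all 6 libraries would be 0.0391 FPKM, counting error only. The 5 male germ cell markers Prm1, Prm2, Tnp1, Tnp2 and Odf1 were listed at 0 in all libraries.

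Cox4i2, the form of lung and of vessel wall cells, stood at 1.80, 1.98 and 1.54 FPKM in mCherry and 1.43, 2.14 and 2.30 in hND6 (log2 fold change 0.10 ± 0.20, limma adjusted p = 0.84, and -0.02 with libraries scaled to 1 sum). The 8 markers of pericytes and vascular smooth muscle summed to 27.9, 44.4 and 30.9 FPKM in mCherry and to 40.3, 43.2 and 37.1 in hND6. Cox4i1, the form of most tissues, was listed at 0 in all 6 libraries, so this pair gave no ratio.

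The zero of Cox4i1 is not read as absence. Cox4i1 (chromosome 8, 120668222 to 120674207, plus strand) lies wholly inside Gm20388 on the same strand, a gene model of 4434882 bases (chromosome 8, 119910841 to 124345722) listed at 38.4 to 48.3 FPKM. Of 37 protein-coding genes inside Gm20388 on its strand 0 had a read, and of 35 on the opposite strand all 35 had reads. None of 716 windows of 50 bases along the Cox4i1 transcript recurred in a transcript of another gene.

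Atp5g1, Atp5g2 and Atp5g3 encode precursors of the same ring subunit c. Atp5g3 stood at 53.8, 49.9 and 79.8 FPKM in mCherry and 78.1, 70.9 and 76.1 in hND6. Atp5g2 stood at 31.3, 29.1 and 31.5 FPKM against 33.0, 34.8 and 37.7, a case in which mCherry 3 stayed beside the other mCherry libraries (log2 fold change 0.19 ± 0.08, limma adjusted p = 0.33). Atp5g1 was lowest in FPKM at 3.31, 3.40 and 6.71 FPKM against 5.33, 5.19 and 5.50, with mCherry 3 above all others (0.30 ± 0.26, adjusted p = 0.62). Its exon length in the table is 4715 bases, beside 753 and 723 for Atp5g2 and Atp5g3, and FPKM divides by it.

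Of the 10 isoform ratios listed 6 could be formed, since both partners averaged at least 0.5 FPKM. The log2 ratio differed between hND6 and mCherry by -0.11 for Cox6b2 to Cox6b1, -0.23 for Cox7a1 to Cox7a2 and -0.03 for Cox7a2l to Cox7a2. It differed by -0.66 for Cox7b2 to Cox7b, -0.10 for Atp5g2 to Atp5g1 and 0.02 for Atp5g3 to Atp5g1. The groups overlapped in all 6. Exact two-sided permutation p-values ran from 0.2 to 1.0 with adjusted values of 1.0, and 3 against 3 libraries cannot give less than 0.1.

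**Figure D4:**
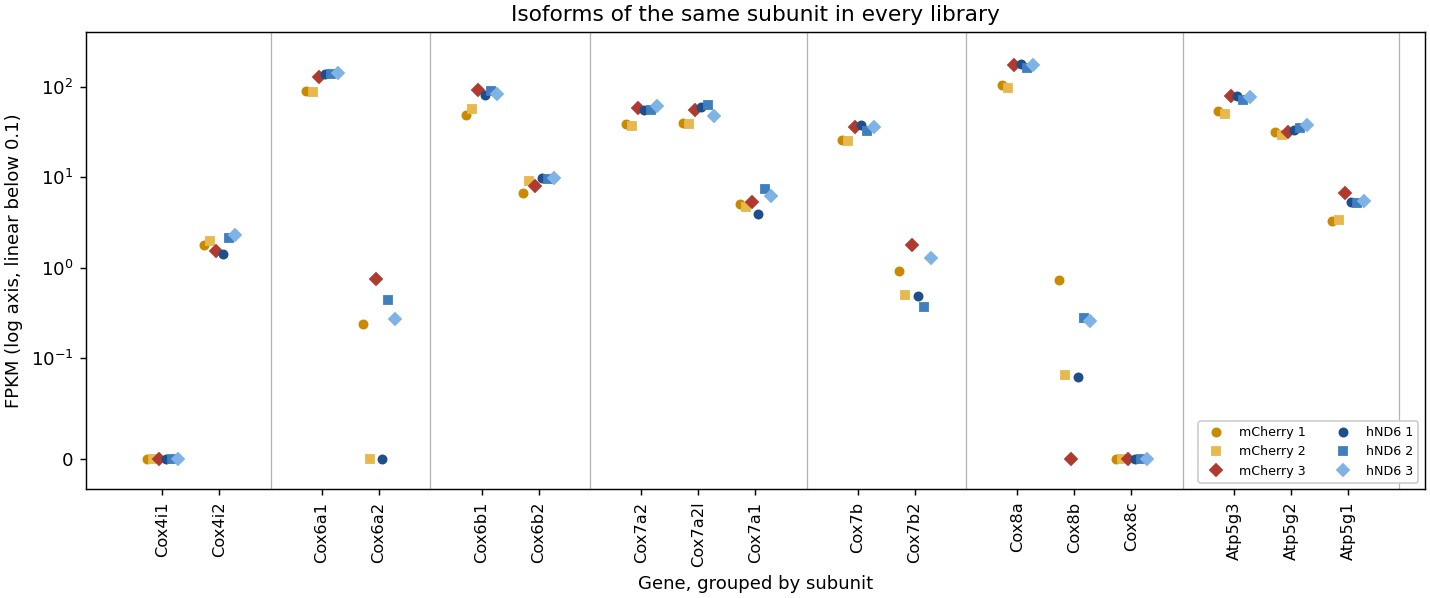
FPKM (y axis, log scale, linear below 0.1) of isoforms of the same subunit in each of the 6 libraries, with the genes of a set side by side on the x axis. Cox4i1 and Cox8c are listed at 0 throughout, and the muscle forms Cox6a2 and Cox8b do not exceed 0.74 FPKM.

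Other genes of the pathway came from lists of subunits and assembly factors. Of 12 genes outside the symbol rule that the table holds, namely further subunits of complexes III to V, cytochrome c and the ATP synthase inhibitor, 7 were tested, 7 lay higher in hND6 and 0 passed (median log2 fold change 0.26). With libraries scaled to 1 sum 6 of 7 lay higher, and 5 of 7 with the span trend removed. Cycs, cytochrome c, stood at 3.61, 3.80 and 6.60 FPKM in mCherry and 6.50, 5.86 and 7.06 in hND6 (limma adjusted p = 0.38). Atpif1, the inhibitor of ATP synthase, stood at 43.9 ± 13.8 FPKM in mCherry and 57.8 ± 2.18 in hND6, and mt-Cytb, the mitochondrially encoded subunit of complex III, at 1478 ± 486 FPKM in mCherry and 2017 ± 287 in hND6. In all of them mCherry 3 was the highest mCherry library. The mitochondrially encoded mt-Co2, mt-Co3, mt-Atp6 and mt-Atp8 were listed below 0.5 FPKM in every library, which is not read as absence.

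Complex II, which feeds electrons from succinate into the chain, had 4 of 4 subunits higher in hND6, 3 of them without overlap, where 12.6% of all tested genes were, and 0 past the threshold (median 0.28). With libraries scaled to 1 sum 1 of 4 was higher without overlap, beside 5.37% of all tested genes. With the span trend removed 2 of 4 were, beside 8.84%. Sdhc, a membrane anchor, stood at 15.6, 14.7 and 17.9 FPKM in mCherry and 20.5, 20.9 and 20.1 in hND6 (limma adjusted p = 0.21). Sdha, the flavoprotein, stood at 68.3, 67.1 and 67.1 FPKM against 76.9, 79.6 and 76.1 (adjusted p = 0.26). In Sdha mCherry 3 was level with mCherry 1 and 2. Sdhd, the other membrane anchor, stood at 21.8 ± 3.30 FPKM in mCherry and 27.2 ± 1.20 in hND6.

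Assembly factors were mixed, and 0 passed. For complex III 4 of 6 lay higher in hND6 (median 0.13, and -0.0038 with libraries scaled to 1 sum), with Uqcc3 at 8.22 ± 1.01 FPKM in mCherry and 10.8 ± 0.593 in hND6 and Uqcc2 at 38.3 ± 1.92 FPKM in mCherry and 43.6 ± 1.57 in hND6. Ttc19, which clears fragments of the Rieske protein, stood at 15.6 ± 4.39 FPKM in mCherry and 10.8 ± 2.09 in hND6. For complex IV 15 of 23 tested factors lay higher and 8 lower (median 0.17, and 0.03 with libraries scaled to 1 sum). Without overlap 7 lay higher, beside 12.6% of all tested genes, and 3 lower, beside 10.2%, the latter being Cmc2, Cox18 and Cox19. In mCherry 1 and hND6 1 Cox18 was level at 7.34 FPKM, and Cox19 nearly so at 8.862 and 8.853. With quantile normalisation 8 lay higher and 1 lower, Cmc2 (all tested genes 12.2% and 9.12%). The balance turned with libraries scaled to 1 sum, to 2 higher and 6 lower (all tested genes 5.37% and 18.9%). It also turned with the span trend removed, to 0 higher and 5 lower (all tested genes 8.84% and 9.23%).

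Higd2a, a complex IV assembly factor, stood at 31.4, 31.1 and 40.0 FPKM in mCherry and 43.1, 53.5 and 56.1 in hND6 (log2 fold change 0.57 ± 0.14, limma adjusted p = 0.20). Its groups did not overlap. Cmc2, lower in hND6 and chosen after its values were seen, stood at 3.41, 4.98 and 4.69 FPKM against 3.16, 2.70 and 3.24 (-0.45 ± 0.17, adjusted p = 0.30). Coa3, needed for early Cox1 assembly, stood at 13.9 ± 3.16 FPKM in mCherry and 21.7 ± 3.16 in hND6, and Surf1, whose loss causes Leigh syndrome, at 25.1 ± 2.37 FPKM in mCherry and 30.4 ± 1.58 in hND6. For complex V 2 of 5 factors lay higher and 3 lower (median -0.10). Fmc1 stood at 14.4 ± 3.03 FPKM in mCherry and 20.8 ± 1.83 in hND6, Atpaf2, which helps the alpha subunit, at 11.7 ± 0.446 FPKM in mCherry and 10.02 ± 0.797 in hND6, and Atpaf1, which helps the beta subunit, at 12.7 ± 1.13 FPKM in mCherry and 11.1 ± 1.45 in hND6. Cox16, Cox17 and Pet117 were listed at 0, and at least 99.7% of each overlaps a longer gene of its own strand.

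The genes of the 3 complexes are short, and log2 fold changes in these libraries went with gene span, the length of a gene on the chromosome. The 40 tested genes had a median span of 6265 bases, beside 24002 for 13678 tested protein-coding genes. Protein-coding genes under 3 kb had a median log2 fold change of 0.34 (760 genes), and the 10 genes of the complexes among them 0.48. From 3 to 10 kb the medians were 0.17 (2642 genes) and 0.33 (22 genes), and from 10 to 30 kb 0.03 (4419 genes) and 0.27 (7 genes).

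With each library's trend with span removed, the medians were 0.26, 0.23 and 0.14 for complexes III, IV and V, and 34 of 40 genes lay higher. The groups then did not overlap for 1 of 40 genes higher in hND6 (2.5%), below the 8.84% of all tested genes, and for 1 lower, beside 9.23% of all. What gene span stands for here was not tested. With every library scaled to 1 sum of FPKM, the median of all tested genes moved to -0.14. The 40 genes then had a median of 0.18, which is 0.32 above that of all genes, with 33 higher and 7 lower. Without overlap 2 of 40 lay higher (5%), beside 5.37% of all tested genes, and 1 lower, beside 18.9% of all.

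**Figure D5:**
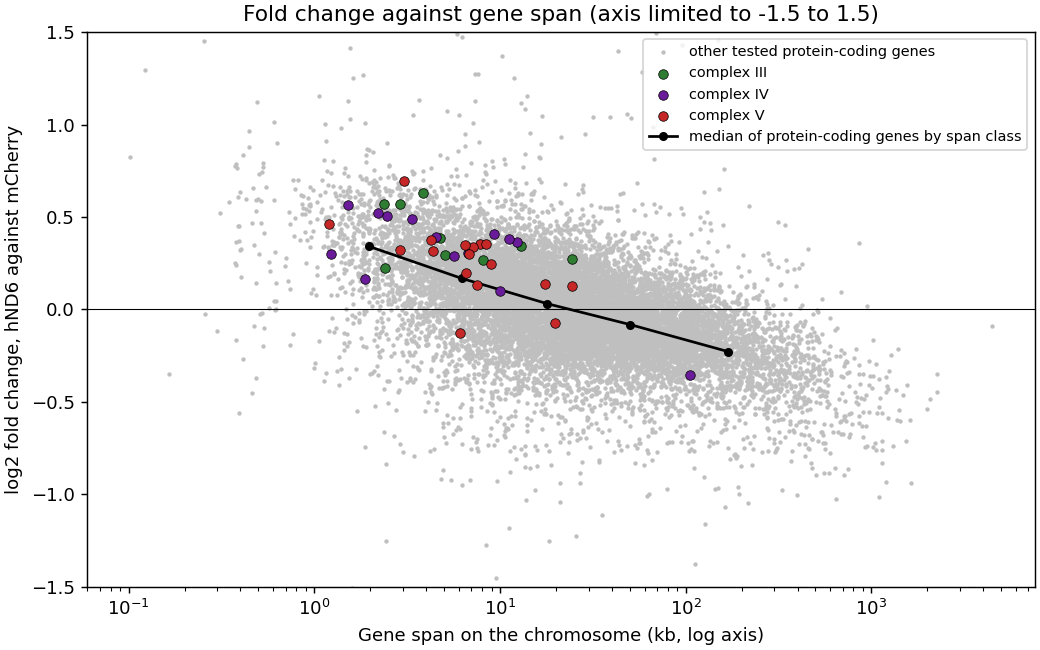
Log2 fold change, hND6 against mCherry (y axis), against gene span in kb (x axis, log scale) for tested protein-coding genes in grey and the genes of complexes III, IV and V in colour, with the black line through the medians of span classes. The 20 genes beyond 1.5 in either direction are not drawn, and the median of all classes falls from 0.34 under 3 kb to -0.23 over 100 kb.

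Several of these transcripts have near-copies in the genome, so that reads may be lost or shared. Of windows of 50 bases along the transcript, 68.5% recurred in transcripts of other genes for Atp5l, 47.9% for Atp5h, 43.2% for Uqcrb and 35.5% for Atp5o. The share was 27.9% for Cox7c, 25.9% for Cox5b, 23.2% for Atp5f1 and lower for the rest. The levels of these named genes are less certain. For Atp5o 24.6% of the windows recurred in another gene entry that also carries the symbol Atp5o. For 23 of the 44 genes, Uqcrc2, Cox8a, Cox7a2 and Atp5e among them, no window recurred.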

How the data were processed

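FPKM values for 6 optic nerve libraries were deposited by the authors, with symbol, biotype, position and exon length of 52636 genes. Per the submitters' processing notes, CASAVA 1.4, Trim Galore, STAR, HTSeq and the builds mm10 and GRCm38 were used, and no source used here states the counting mode. FPKM times exon length gave whole reads for at least 99.99% of values above 0 (tolerance 0.1 read), from 20253637 to 34758873 per library, for limma's voom as an alternative. Depth limits genes of few reads.

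Genes averaging 0.5 FPKM or more were tested on log2(FPKM + 0.5) with limma 3.58.1 in R 4.3.3 (intensity trend, Benjamini-Hochberg over all 16157 genes, threshold 0.05). The fit was also run on simulated data, with larger changes than those of the complexes and no deviating library. That run does not tell how well changes of the size seen here would be found. Isoform ratios were compared with exact permutation tests. Fold changes on this scale understate those of low genes. The members and lists were chosen with earlier results of these data known. Named by rule were, per complex, the 3 genes of smallest p, the most abundant and the one of lowest fold change, all isoform sets, genes under the filter, non-subunits, and 3 genes of smallest p per list. Other genes of the complexes were named after their values were seen. Alternatives were other pseudocounts, filters, scalings and limma settings, removal of the trend with gene span, a replicate block, voom and leaving out libraries. Leaving out 2 libraries together was added after seeing the data. Promoter windows came from RefSeq (GRCm38.p6) and transcripts for near-copies from GENCODE.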

Additional observations from a re-analysis of the deposited data

How the results depend on the processing

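Of the 40 tested genes 0 were called under every alternative except without mCherry 3. Leaving out 1 library gave 0 to 11 calls among them and 0 to 131 among all genes, where 7 were called with all 6 libraries. Among all genes 1 was called without a filter, 0 with the replicate block and 0 with voom. With mCherry 3 and hND6 1 both left out 1 was called, and with mCherry 3 and hND6 2 left out 0. The block changed no call among the 40 genes. Deviations of same-numbered libraries correlated at -0.416, 0.363 and -0.197, above 0.1 in 1 of 3 pairs, so the numbers were not taken as pairs.

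Genes without overlap and higher in hND6 numbered 9 (22.5%, all genes 12.6%), but 2 on the TPM scale (5%, all genes 5.37%) and 1 with the span trend removed (2.5%, all genes 8.84%), so the excess over all genes was absent in both. With quantile normalisation they numbered 6 (15%, all genes 12.2%), a smaller excess. They numbered 9 to 35 with 1 library left out (all genes 15.1% to 19.9%), and 37 and 35 with mCherry 3 and hND6 1 or hND6 2 left out (all genes 25.9% and 24.7%). The complex V median was 0.19 to 0.51 with 1 library left out, and 0.50 in both fits without 2 libraries.

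Isoform ratios turned sign as follows. Leaving out 1 library gave -0.3693 to 0.0757 for Cox6b2 to Cox6b1, -0.1225 to 0.1495 for Cox7a2l to Cox7a2, -0.3846 to 0.0715 for Atp5g2 to Atp5g1 and -0.0713 to 0.1066 for Atp5g3 to Atp5g1. For the last, a pseudocount of 0.1 gave -0.0041. Of the 40 tested genes 9 turned sign in some alternative. On the TPM scale Atp5c1 reached -0.0154, Atp5l -0.0091 and Atp5f1 -0.0044. Atp5s ran from -0.2121 to 0.0141 with 1 library left out, and reached 0.0084 with library weights and 0.0841 without mCherry 3 and hND6 1. Cox4i2 reached -0.0164 on the TPM scale, -0.0027 to 0.2638 with 1 library left out and -0.0356 without mCherry 3 and hND6 2. With the span trend removed Cox6b2 reached -0.0139, Cox7a1 -0.1067 and Cyc1 -0.0256. Cox7a1 ran from -0.0125 to 0.3977 with 1 library left out, and Cox7b2 0.0749 and 0.1619 without mCherry 3 and hND6 1 or hND6 2. The cause was not tested. None of these reversed values passed the threshold, and depth limits Cox7b2 with 77 reads.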
